A study of Mus musculus with 8 samples.

Results

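Collagen genes were examined in primary mammary tumours with and without knockdown of miR-21. They were taken as the identifiers in the count table whose mouse symbol consists of Col, a number, the letter a and a number, which gave 44 genes of 27179 in the table. Of these, 11 encode fibrillar chains, 9 basement membrane chains, 9 network-forming chains, 9 FACIT chains (fibril-associated collagens with interrupted triple helices) and 4 transmembrane chains, and 2 belong to none of these classes. RNA was sequenced from 4 4T1.13-VC and 4 4T1.13-miR-21-KD tumours, each a whole tumour, so tumour cells and host cells contributed together. 4T1.13 is a metastatic mouse mammary carcinoma line, and 100000 of its cells were placed in a mammary fat pad of female BALB/c mice aged 7 to 8 weeks, an inbred strain with an intact immune system. Tumours were recovered at day 14 according to the labels, as the miR-21-KD tumours began to regress (the study's methods give an earlier day). The miR-21-KD cells carried the miArrest lentiviral vector, in which the H1 promoter drives an RNA that captures and so sequesters miR-21 itself, and the VC cells carried a scrambled RNA in the same vector. Both lines therefore expressed mCherry and hygromycin B resistance, and both were pools of single-cell clones. The vector was carried by the injected cells and not by the host, and miR-21 in host cells was not measured in these data.

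The gene counts of a tumour summed to between 12134849 and 13592695, and levels are given as CPM, counts scaled to a common library size with the TMM factors of edgeR. A count of 0 allows up to 3 counts, which is 0.221 to 0.247 CPM in these tumours, for counting error only. The precursor gene of the targeted miRNA, Mir21a, had 0 counts in all 8 tumours. The vector sequesters the mature miRNA, so precursor counts would not show the knockdown in any case, and it was not checked here. The labelled tumour type was checked with epithelial keratins. Krt18 had 1022 ± 243 CPM in the VC tumours and 460 ± 216 CPM in the miR-21-KD tumours, and Krt8 had 808 ± 173 and 439 ± 213 CPM (mean ± SD, n = 4 each). The less abundant Epcam, Krt19, Cdh1, Krt14 and Krt5 were higher in miR-21-KD tumours, by 2.87-fold for Cdh1 to 12.2-fold for Krt19 in mean CPM. In bulk RNA, fewer cells of a type and less RNA per cell cannot be told apart, and p-values measure the spread between these tumours.

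Collagens are built from chains wound into a triple helix. Fibrillar collagens assemble into the tensile fibres of connective tissue, FACIT collagens sit on the surface of those fibres, type IV collagen forms the sheet beneath epithelium and endothelium, and type VI collagen forms beaded filaments around cells. In mammary tumours most interstitial collagen is laid down by fibroblasts, and dense, cross-linked collagen is a known feature of the stroma of these tumours.

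The sequence that the vector was designed to bind is shown first, because it defines the comparison, with its seed (bases 2 to 8) in capitals. RefSeq places it at chr11:86584120-86584141 on the minus strand of GRCm38.p6, the patch release of the build (mm10) named in the submitters' processing notes.

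miR-21a-5p: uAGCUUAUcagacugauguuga

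The reverse complement of this seed, ATAAGCT, was found in the annotated 3′ UTR of 1 of the 44 collagen genes, Col12a1 (2.3%). This was 1 of the 36 collagen genes tested below (2.8%), against 1036 of 13347 tested genes with an annotated 3′ UTR (7.8%). Within the first 1000 bases of the 3′ UTR, among genes whose UTR is at least that long, the match was in 1 of 24 collagen genes (4.2%) and in 338 of 7398 tested genes (4.6%). Median UTR lengths were 1032 and 1174 bases. The match in Col12a1 starts 291 bases after the stop codon in a UTR of 2178 bases, at chr9:79600872-79600878 on the minus strand (GRCm38), and is shown in capitals with 9 bases on either side.

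Col12a1 3′ UTR: aggcgcctaATAAGCTactaaccaa

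Such a match is a run of letters and not a tested site. Col12a1 was 2.19-fold higher in miR-21-KD tumours by its mean CPM and is described with the FACIT genes.

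Promoters are shown for a pair of genes of the major interstitial collagens, Col1a2 and Col3a1, and for Col4a1 of the basement membrane, whose levels moved differently. Each stretch runs from 250 bases before to 50 bases after the start that the RefSeq promoter table uses on GRCm38.p6, at chr6:4505368-4505667 (plus strand) for Col1a2, chr1:45311288-45311587 (plus strand) for Col3a1 and chr8:11312777-11313076 (minus strand) for Col4a1. For Col4a1 that start lies inside the outer end of the gene at 11312889. Capitals mark matches to the letters of the CCAAT box, of the GC box (GGGCGG) and of the TATA box (TATAAA). Such matches are runs of letters and not tested sites, and their distance from the start was not considered. Each was searched on both strands, so its reverse complement is marked as well, and no match overlaps another in these windows.

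Col1a2: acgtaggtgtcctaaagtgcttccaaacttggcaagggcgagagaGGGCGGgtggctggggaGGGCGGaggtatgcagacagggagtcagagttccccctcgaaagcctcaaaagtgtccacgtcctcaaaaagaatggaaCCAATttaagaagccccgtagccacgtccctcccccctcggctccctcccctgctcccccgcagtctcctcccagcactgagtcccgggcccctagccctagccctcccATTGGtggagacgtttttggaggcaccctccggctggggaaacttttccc

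Col3a1: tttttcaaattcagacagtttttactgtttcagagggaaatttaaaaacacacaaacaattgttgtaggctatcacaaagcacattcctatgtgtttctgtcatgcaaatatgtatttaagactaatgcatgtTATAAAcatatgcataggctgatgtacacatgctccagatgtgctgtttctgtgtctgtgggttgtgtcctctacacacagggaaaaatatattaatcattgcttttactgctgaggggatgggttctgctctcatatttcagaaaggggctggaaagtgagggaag

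Col4a1: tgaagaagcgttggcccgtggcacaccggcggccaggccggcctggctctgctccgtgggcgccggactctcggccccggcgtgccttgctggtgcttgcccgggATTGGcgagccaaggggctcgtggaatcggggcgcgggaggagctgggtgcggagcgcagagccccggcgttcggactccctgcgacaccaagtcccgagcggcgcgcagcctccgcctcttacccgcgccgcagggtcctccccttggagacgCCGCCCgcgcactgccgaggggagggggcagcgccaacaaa

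The Col1a2 window held 2 CCAAT and 2 GGGCGG matches and the Col4a1 window 1 of each, while the Col3a1 window held a single TATAAA match. Their GC contents were 61.0%, 74.0% and 37.7% for Col1a2, Col4a1 and Col3a1. Among all 38 promoter windows of 35 collagen genes, CCAAT was found in 13 (34.2%), GGGCGG in 23 (60.5%) and TATAAA in 5 (13.2%). In all 32851 mouse promoter windows of this length, the shares were 37.4%, 35.7% and 13.6%.

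The first comparison asked how collagen transcripts differed between the tumours. Collagen RNA was more abundant in miR-21-KD tumours, and most of the difference lay in fibrillar chains. Reads on collagen genes made up 1.36%, 0.881%, 0.956% and 1.14% of all counts in VC tumours 1 to 4, and 2.96%, 1.66%, 1.80% and 1.91% in miR-21-KD tumours 1 to 4. Every miR-21-KD tumour was above every VC tumour. Summed over the 44 genes, the level was 10762 ± 2187 CPM in the VC tumours and 21102 ± 6174 CPM in the miR-21-KD tumours (mean ± SD, n = 4 each), a ratio of means of 1.96. Of the 44 genes, 36 had enough counts to be tested in edgeR across all 14382 such genes, and 8 did not. With a Benjamini-Hochberg adjusted p under 0.05, 17 collagen genes rose in miR-21-KD tumours, where 19.6% of all genes tested rose. Only Col18a1 fell, where 19.5% of all genes tested fell, and 18 tested collagen genes did not pass (39.1% of all genes tested passed in either direction). Of the 17, 15 rose by more than 1 on the log2 scale, which 10.7% of all genes tested did. In 16 of the 36 tested collagen genes every miR-21-KD tumour was above every VC tumour (16.3% of all genes tested), and in 1 every one was below (18.9%). The median log2 fold change was 1.03 over the 36 tested collagen genes and -0.01 over all genes tested. These tallies leave out the 8 genes with few counts, and they moved when a tumour was left out, since 10 collagen genes rose without VC replicate 3 and 21 rose without miR-21-KD replicate 2. The share of all genes tested that rose moved as well, to 9.9% and 22.5% in these settings. The fit reported has no term for replicate number. In a fit that blocks on it, 21 collagen genes rose, where 23.0% of all genes tested rose.

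**Figure D1:**
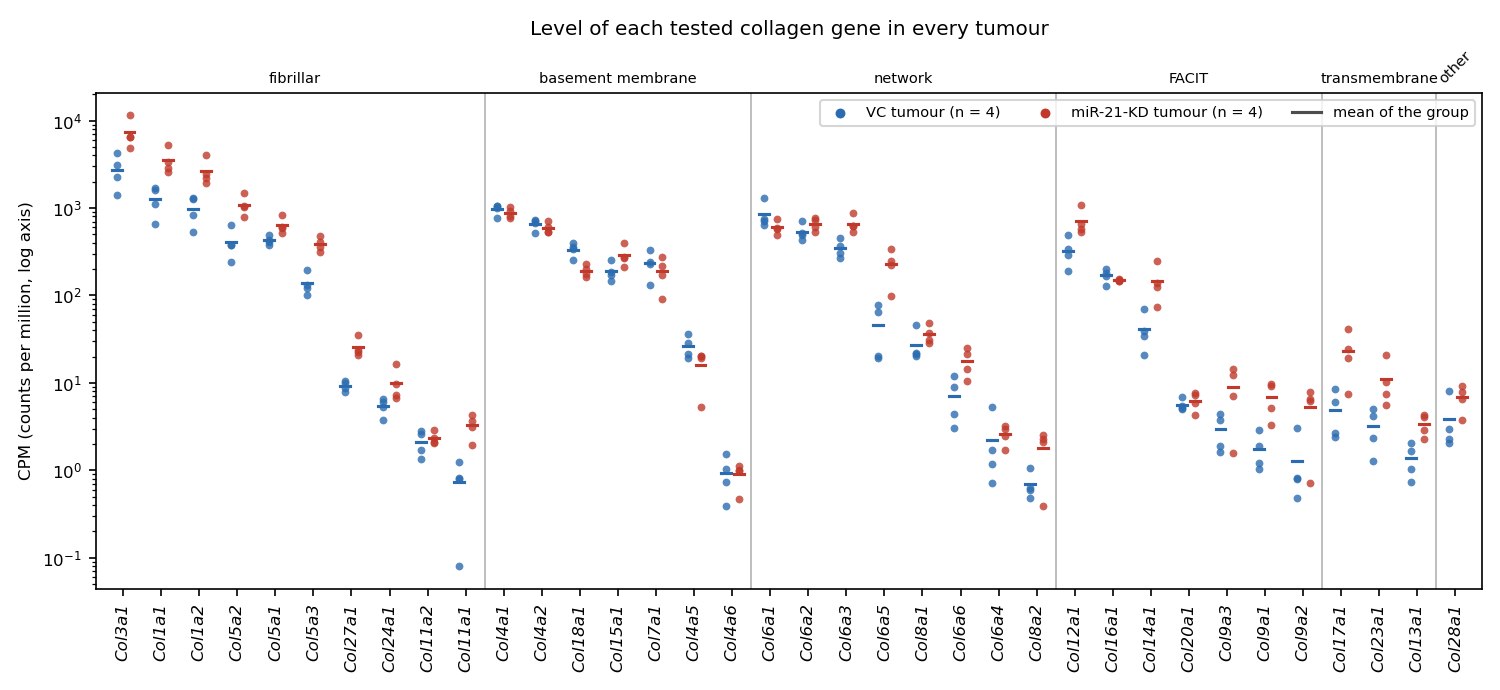
CPM on a log axis of the 36 tested collagen genes in each of the 4 VC and 4 miR-21-KD tumours, grouped by class, with a bar at each group mean. The fibrillar genes hold the highest points, up to 11469.8 CPM for Col3a1, and the groups separate in 9 of the 10 fibrillar genes, while Col4a1 and Col4a2 overlap.

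**Figure D2:**
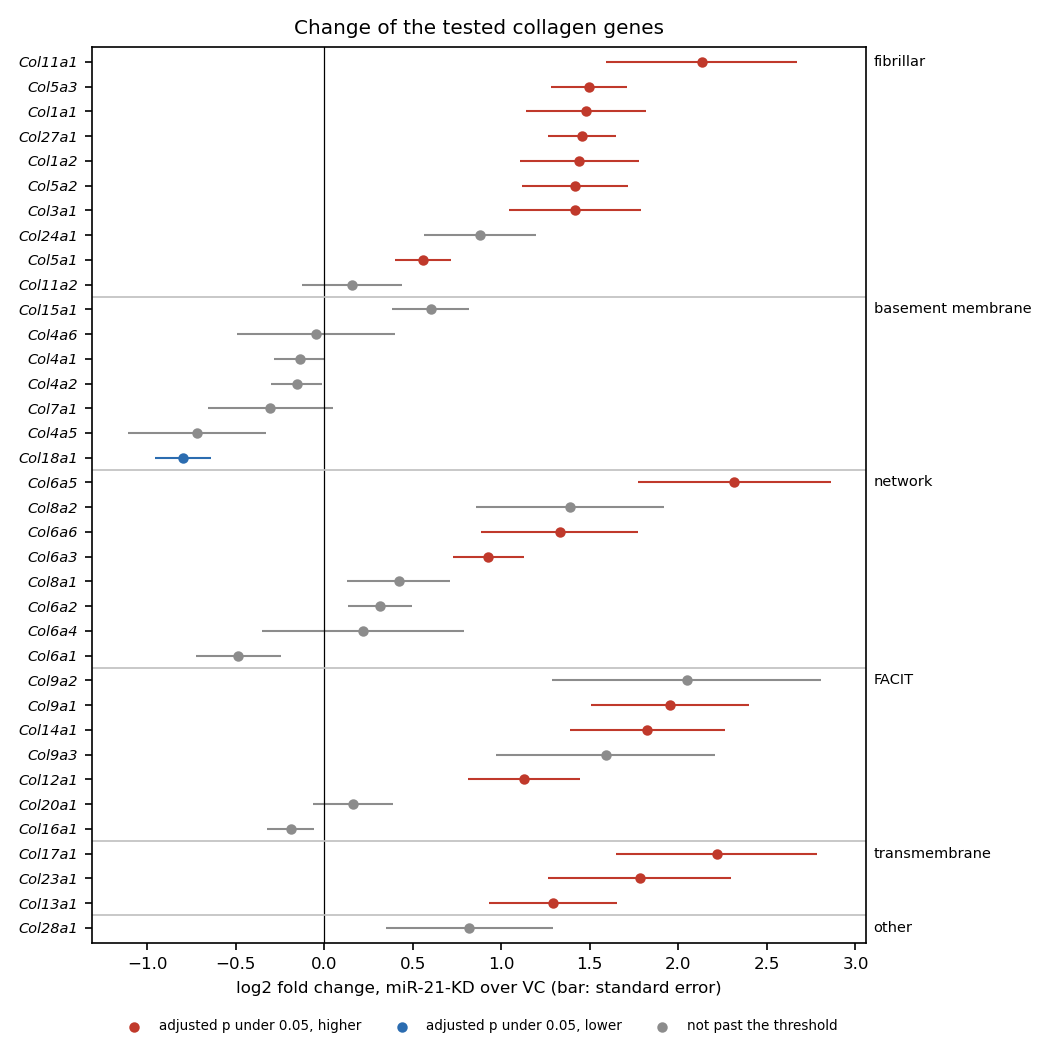
Log2 fold change (miR-21-KD over VC) of the 36 tested collagen genes with its standard error, grouped by class and coloured by the edgeR result. Rises run up to 2.32 for Col6a5, and Col18a1 at -0.80 is the only gene past the threshold on the other side.

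Most fibrillar chains rose. Of 11 genes, 10 were tested, 8 rose, none fell and 2 did not pass, and the median log2 fold change of the 10 was 1.43. Their summed level was 8535, 3355, 5164 and 6859 CPM in VC tumours 1 to 4 and 23681, 11365, 13168 and 14379.8 CPM in miR-21-KD tumours 1 to 4, a ratio of means of 2.62. Replicate 1 was the highest and replicate 2 the lowest in both groups, and the groups did not overlap.

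Col3a1 (Entrez 12825), the chain of type III collagen of distensible and healing tissue, was the most abundant collagen transcript, also per length of transcript. It had 4206, 1410.1, 2265 and 3110.0 CPM in VC tumours 1 to 4 and 11469.8, 4859, 6454 and 6546 CPM in miR-21-KD tumours 1 to 4. Each miR-21-KD tumour exceeded each VC tumour, with a log2 fold change of 1.42 (standard error 0.37, edgeR adjusted p = 0.0198). Without VC replicate 3 the value was 1.33 and the adjusted p 0.0601, in a fit where 9.9% of all genes tested rose. Col1a1 (Entrez 12842), the α1 chain of type I collagen, had 1681, 649, 1105 and 1594 CPM in VC tumours and 5289, 2844, 2562 and 3318 CPM in miR-21-KD tumours. Its log2 fold change was 1.48 (standard error 0.34, edgeR adjusted p = 0.0134), and the groups were well apart. Col1a2 (Entrez 12843), the α2 chain, had 1306, 527, 830.4 and 1254 CPM in VC tumours and 4072, 1930.1, 2189.9 and 2444 CPM in miR-21-KD tumours. Its log2 fold change of 1.44 (standard error 0.34, edgeR adjusted p = 0.0139) was close to that of Col1a1. Per kilobase of the longest protein-coding transcript, Col3a1 had 494 ± 215 CPM in the VC tumours and 1318 ± 515 CPM in the miR-21-KD tumours, Col1a1 212 ± 80.7 and 591 ± 207, and Col1a2 183 ± 69.1 and 497 ± 180.4 (mean ± SD, n = 4 each). Col3a1 thus stood above Col1a1 and Col1a2 on this scale. Within a tumour, Col1a1 over Col1a2 per kilobase averaged 1.15 in the VC tumours and 1.19 in the miR-21-KD tumours.

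Type V collagen sits inside type I fibrils and sets their diameter, and all of its chains rose. Col5a2 (Entrez 12832) had 633, 243, 381 and 378 CPM in VC tumours and 1490.4, 797, 1051 and 1029 CPM in miR-21-KD tumours, a log2 fold change of 1.42 (standard error 0.30, edgeR adjusted p = 0.0105). Col5a3 (Entrez 53867) had 195, 102, 131 and 123 CPM in the VC tumours and 476, 312, 359.9 and 405 CPM in the miR-21-KD tumours, a change of 1.5 (standard error 0.21, edgeR adjusted p = 0.00558). Col5a1 (Entrez 12831) had 494, 410.4, 434 and 379 CPM in the VC tumours and 826, 588, 518 and 599.6 CPM in the miR-21-KD tumours. Its groups did not overlap either, but its log2 fold change was 0.56 (standard error 0.16, edgeR adjusted p = 0.0248). The call of Col5a1 was lost without VC replicate 2, 3 or 4 or miR-21-KD replicate 4, with adjusted p of 0.0688, 0.0640, 0.0509 and 0.0515 and log2 fold changes of 0.53, 0.56, 0.50 and 0.59.

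The minor fibrillar genes were far less abundant. Col27a1 (Entrez 373864), a fibrillar collagen of cartilage and other tissues, had 10.5, 7.82, 8.83 and 10.1 CPM in the VC tumours and 35.3, 20.9, 22.2 and 23.7 CPM in the miR-21-KD tumours. The groups did not overlap, and the change was 1.46 (standard error 0.19, edgeR adjusted p = 0.00501). Col11a1 (Entrez 12814), which nucleates cartilage fibrils and is known from activated tumour fibroblasts, had 1.25, 0.0798, 0.788 and 0.817 CPM in the VC tumours and 4.28, 1.97, 3.17 and 3.68 CPM in the miR-21-KD tumours. In VC replicate 2 this was a single count, and the counts ran from 25 to 53 in miR-21-KD tumours. The log2 fold change was 2.13 (standard error 0.54, edgeR adjusted p = 0.0173), and without VC replicate 3 it was 2.16 with an adjusted p of 0.0513. Col24a1 was higher in every miR-21-KD tumour than in any VC tumour but did not pass (log2 fold change 0.88, edgeR adjusted p = 0.0532), and it passed with upper-quartile scaling, under a filter of 10 counts in each tumour, with DESeq2 and without miR-21-KD replicate 3 (adjusted p 0.0487, 0.0455, 0.0207 and 0.0495). Col11a2 had a log2 fold change of 0.16 (edgeR adjusted p = 0.682). Col2a1, the collagen of cartilage, was not tested, with at most 2 counts in any tumour.

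Basement membrane chains did not share the rise of the fibrillar chains. Of 9 genes, 7 were tested, none rose, Col18a1 fell and 6 did not pass, and the median log2 fold change of the 7 was -0.15. Among all genes tested 19.6% rose and 19.5% fell, so the counts of these 7 are not far from those shares. Their summed level was 2514, 2579.9, 2141 and 2394 CPM in VC tumours 1 to 4 and 2434, 2240.3, 2001 and 1941 CPM in miR-21-KD tumours 1 to 4. The groups overlapped, with a ratio of means of 0.895.

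Col4a1 (Entrez 12826) and Col4a2 (Entrez 12827) encode the chains of the common type IV network. Col4a1 had 1046, 1053, 766 and 990.0 CPM in the VC tumours and 1019, 912, 802 and 767 CPM in the miR-21-KD tumours, a log2 fold change of -0.14 (standard error 0.14, edgeR adjusted p = 0.462). Col4a2 had 703, 681, 522 and 733 CPM in the VC tumours and 704, 603, 535 and 529 CPM in the miR-21-KD tumours, a change of -0.15 (standard error 0.14, edgeR adjusted p = 0.412). Both pairs of groups overlapped, and the differences were within the spread between tumours. RefSeq places this pair head to head on chromosome 8, with gene models that overlap by 85 bases.

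Col18a1 (Entrez 12822), the precursor of endostatin and a heparan sulphate-bearing basement membrane collagen, was the collagen gene that fell. It had 252, 393, 354 and 338 CPM in VC tumours 1 to 4 and 202, 229.5, 163 and 175 CPM in miR-21-KD tumours 1 to 4. Each miR-21-KD tumour was below each VC tumour, with a log2 fold change of -0.80 (standard error 0.16, edgeR adjusted p = 0.00922). This call was kept when any single tumour was left out, with values between -0.91 and -0.72. Col15a1, its closest relative in structure, went the other way without passing. It had 254, 185, 147 and 173 CPM in the VC tumours and 395, 214, 265 and 278 CPM in the miR-21-KD tumours, a log2 fold change of 0.60 (edgeR adjusted p = 0.0566), and 0.59 in the fit that blocks on replicate number (edgeR adjusted p = 0.0110). It also passed with DESeq2, with limma-voom, under the stricter filter of 10 counts in each tumour and without VC replicate 1 or miR-21-KD replicate 2. Col7a1, the anchoring fibril collagen of skin, Col4a5 and Col4a6 had log2 fold changes of -0.30, -0.72 and -0.05, with edgeR adjusted p of 0.516, 0.168 and 0.944. Col4a3 and Col4a4, chains of the kidney glomerulus and lung, were not tested, with at most 8 and 4 counts in a tumour. Without a filter on low counts Col4a3 had a log2 fold change of 1.82 (edgeR adjusted p = 0.0381).

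Some network-forming chains rose and others did not pass, also within type VI collagen. Of 9 genes, 8 were tested, 3 rose, none fell and 5 did not pass, where 19.6% of all genes tested rose and 19.5% fell. The median log2 fold change was 0.67, and 7 of the 8 values were positive. Col6a1 (Entrez 12833) had 711, 1293, 749 and 636 CPM in the VC tumours and 580.4, 598, 752 and 491 CPM in the miR-21-KD tumours, a log2 fold change of -0.48 that did not pass (standard error 0.24, edgeR adjusted p = 0.132). Col6a2 (Entrez 12834) had 514, 708, 429.9 and 487 CPM in the VC tumours and 738, 538, 768 and 612 CPM in the miR-21-KD tumours, a change of 0.31 (edgeR adjusted p = 0.190). VC replicate 2 was the highest VC tumour for both chains, and the groups overlapped for both.

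The third chain of the type VI monomer, Col6a3 (Entrez 12835), rose. It had 451, 270.4, 369.8 and 304 CPM in the VC tumours and 875, 618, 623 and 538 CPM in the miR-21-KD tumours, a log2 fold change of 0.93 (standard error 0.20, edgeR adjusted p = 0.0115). Col6a4, Col6a5 and Col6a6 encode chains that can take the place of the α3 chain and lie beside each other on chromosome 9. Col6a5 (Entrez 665033) had 77.7, 20.5, 19.5 and 64.4 CPM in the VC tumours and 245, 99.6, 343 and 220.0 CPM in the miR-21-KD tumours, with no overlap. Its log2 fold change of 2.32 (standard error 0.54, edgeR adjusted p = 0.0140) was the largest of all tested collagen genes. Col6a6 (Entrez 245026) had 11.9, 4.39, 3.07 and 8.99 CPM in the VC tumours and 21.3, 10.5, 25.2 and 14.5 CPM in the miR-21-KD tumours, so the groups overlapped. Its change of 1.33 (standard error 0.44, edgeR adjusted p = 0.0433) was lost without a filter on low counts (adjusted p = 0.0589) and without any one of 6 tumours, VC replicates 2, 3 and 4 and miR-21-KD replicates 1, 3 and 4, where the adjusted p was 0.106, 0.0899, 0.0511, 0.0947, 0.109 and 0.0714 and the change between 1.07 and 1.45. Col6a4 had a log2 fold change of 0.22 (edgeR adjusted p = 0.777), and without VC replicate 4, its highest VC tumour, the value was 1.09 (adjusted p = 0.0487). Of the type VIII chains, which form the hexagonal networks of vessels and cornea, Col8a1 had 0.42 (edgeR adjusted p = 0.270) and Col8a2 1.39 (edgeR adjusted p = 0.0654). With the replicate block these were 0.48 and 1.31, and both passed (edgeR adjusted p = 0.0253 and 0.0404). Without VC replicate 4 Col8a1 was at 0.78 (adjusted p = 0.0177), and without miR-21-KD replicate 2 Col8a2 was at 1.72 (adjusted p = 0.00462). Col8a1 and Col8a2 passed with limma-voom as well (adjusted p = 0.0160 and 0.0145), and Col8a2 passed with DESeq2 (adjusted p = 0.0444). Col10a1, the collagen of hypertrophic cartilage, was not tested, with at most 4 counts in a tumour.

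FACIT chains included both abundant genes on type I fibrils and scarce genes of cartilage. Of 9 genes, 7 were tested, 3 rose, none fell and 4 did not pass, with a median log2 fold change of 1.59. Col12a1 (Entrez 12816), which bridges fibrils in dense connective tissue, had 488, 190.0, 337 and 288 CPM in the VC tumours and 1081, 664, 578 and 529 CPM in the miR-21-KD tumours. The groups did not overlap, and the log2 fold change was 1.13 (standard error 0.32, edgeR adjusted p = 0.0245). The adjusted p was 0.0542 without VC replicate 2, 0.0614 without VC replicate 3 and 0.0566 without miR-21-KD replicate 1, at changes of 0.93, 1.14 and 0.86. Col14a1 (Entrez 12818), a related gene of soft connective tissue, had 70.6, 21, 34.7 and 38.8 CPM in the VC tumours and 249, 73.8, 138 and 125 CPM in the miR-21-KD tumours, a change of 1.82 (standard error 0.44, edgeR adjusted p = 0.0149) with no overlap. Col16a1 (Entrez 107581), the FACIT gene second to Col12a1 in CPM, had 168, 183, 202 and 127 CPM in the VC tumours and 149, 147, 154 and 147 CPM in the miR-21-KD tumours. This difference of -0.19 did not pass (edgeR adjusted p = 0.273), and without VC replicate 4, the lowest tumour, it was -0.31 (adjusted p = 0.0291).

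The type IX genes, whose product coats cartilage fibrils, ran from 0.479 CPM (Col9a2 in VC replicate 2) to 14.5 CPM (Col9a3 in miR-21-KD replicate 4). Col9a1 (Entrez 12839) had 2.88, 1.2, 1.02 and 1.88 CPM in the VC tumours and 5.09, 3.30, 9.09 and 9.71 CPM in the miR-21-KD tumours, with no overlap and a change of 1.95 (standard error 0.44, edgeR adjusted p = 0.0131). Col9a2 and Col9a3 had log2 fold changes of 2.05 and 1.59 and did not pass (edgeR adjusted p = 0.0597 and 0.0693). With the replicate block Col9a2 was at 2.07 and passed (edgeR adjusted p = 0.0219). Col9a2 and Col9a3 also passed with DESeq2 (adjusted p = 0.0164 and 0.0221) and with limma-voom (adjusted p = 0.0103 and 0.0428). Both had their lowest miR-21-KD value in replicate 2, at 0.707 CPM for Col9a2 and 1.57 CPM for Col9a3, and both passed without that tumour (adjusted p = 0.0111 and 0.00750). Col9a2 also passed without VC replicate 1, its highest VC tumour, at 2.93 (adjusted p = 0.0243). Of the cartilage genes Acan, Matn1, Matn3 and Hapln1, none had a group mean above 0.121 CPM, and Comp rose from 0.429 ± 0.258 to 2.05 ± 0.497 CPM (mean ± SD, n = 4 each, edgeR adjusted p = 0.00968). Sox9, a cartilage transcription factor that other cells also express and the most abundant of this list, had 60.2 ± 2.95 and 37.4 ± 13.9 CPM (mean ± SD, n = 4 each), with every miR-21-KD tumour below every VC tumour and a log2 fold change of -0.69 that did not pass (edgeR adjusted p = 0.0517) except with the replicate block. Col20a1 had a log2 fold change of 0.16 (edgeR adjusted p = 0.585). Col22a1 had 14, 12, 19 and 3 counts in the VC tumours and 0, 3, 0 and 2 in the miR-21-KD tumours and missed the minimum for testing. Without a filter it had a log2 fold change of -3.14 (edgeR adjusted p = 0.0229), where 12.8% of genes tested without a filter fell. Col19a1 had 2 counts in 1 miR-21-KD tumour and 0 in the other 7.

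Transmembrane chains were scarce, and each one tested rose. Of 4 genes, 3 were tested and 3 rose, with a median log2 fold change of 1.78. Col17a1 (Entrez 12821), the hemidesmosome collagen of basal epithelium, had 8.48, 2.39, 6.07 and 2.70 CPM in the VC tumours and 41.0, 7.47, 19.1 and 24.2 CPM in the miR-21-KD tumours. VC replicate 1 was above miR-21-KD replicate 2, so the groups overlapped, and the change was 2.22 (standard error 0.57, edgeR adjusted p = 0.0180). Col23a1 (Entrez 237759), a collagen of epithelial cell surfaces, had 5.01, 1.28, 2.36 and 4.17 CPM in the VC tumours and 20.9, 7.55, 5.52 and 10.3 CPM in the miR-21-KD tumours, a change of 1.78 (standard error 0.52, edgeR adjusted p = 0.0274). Col13a1 (Entrez 12817), which acts at the neuromuscular junction and other cell contacts, had 2.06, 1.04, 1.66 and 0.736 CPM in the VC tumours and 4.28, 2.28, 2.92 and 4.07 CPM in the miR-21-KD tumours, a change of 1.29 (standard error 0.36, edgeR adjusted p = 0.0234). Neither Col23a1 nor Col13a1 overlapped between groups, but both calls were lost without VC replicate 2, VC replicate 3, miR-21-KD replicate 1 or miR-21-KD replicate 4. The adjusted p was then 0.0601, 0.0764, 0.0681 and 0.0583 for Col23a1 and 0.0670, 0.0520, 0.0593 and 0.0647 for Col13a1, with log2 fold changes of 1.28 to 1.81 and of 1.16 to 1.38. Col25a1, known from neurons, was not tested, with 7 counts over all VC and 36 over all miR-21-KD tumours.

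Of the remaining genes, Col28a1 (Entrez 213945), a collagen of peripheral nerve, had 8.04, 2.07, 2.99 and 2.29 CPM in the VC tumours and 6.47, 9.28, 7.79 and 3.76 CPM in the miR-21-KD tumours. It did not pass (log2 fold change 0.82, edgeR adjusted p = 0.191), and without VC replicate 1 the value was 1.47 (adjusted p = 0.0169). Col26a1 was not tested, with 8 counts over all VC and 19 over all miR-21-KD tumours.

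The make-up of collagen RNA was then compared within each tumour, as the share of each class in all collagen counts. Fibrillar genes held 62.7%, 38.7%, 54.4% and 60.8% in VC tumours 1 to 4 and 78.4%, 69.2%, 70.6% and 75.1% in miR-21-KD tumours 1 to 4, with no overlap. Basement membrane genes held 18.5%, 29.8%, 22.5% and 21.2% in VC and 8.06%, 13.6%, 10.7% and 10.2% in miR-21-KD tumours, also with no overlap. Shares of one total move against each other, and the summed CPM of the basement membrane genes overlapped between the groups. Network genes held 17.6% ± 6.31 and 10.9% ± 2.29, FACIT genes 5.11% ± 0.9 and 4.91% ± 0.436, and transmembrane genes 0.0870% ± 0.0276 and 0.172% ± 0.0531 in VC and miR-21-KD tumours (mean ± SD, n = 4 each), and these ranges overlapped. VC replicate 2 stood apart from the other VC tumours, with the smallest fibrillar share and the largest network share at 26.8%.

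**Figure D3:**
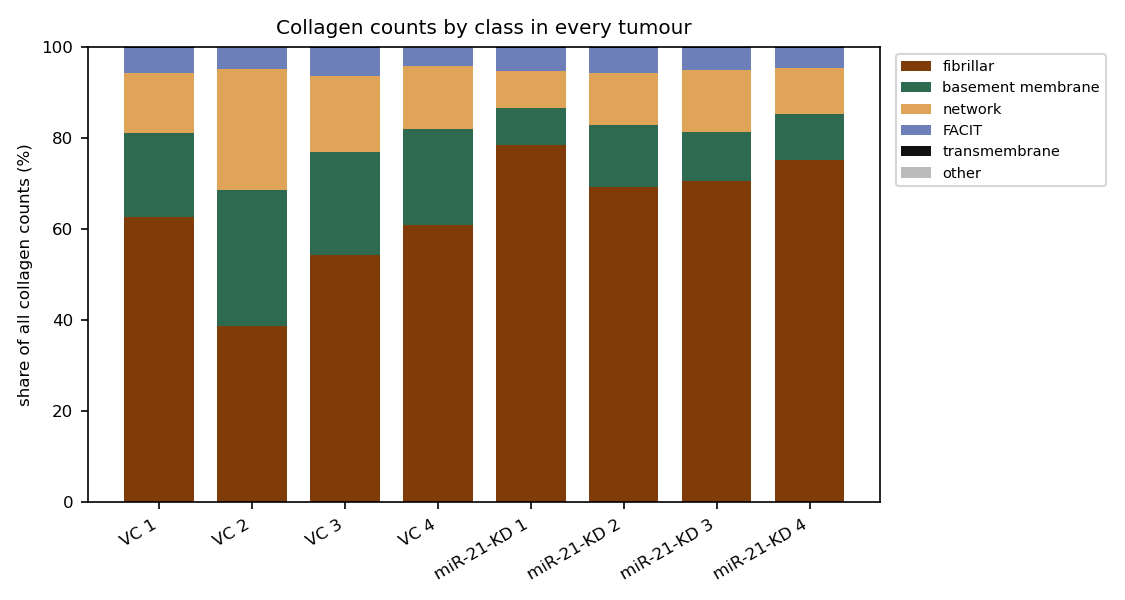
Share in percent of each collagen class in all collagen counts of each tumour, as stacked bars for VC 1 to 4 and miR-21-KD 1 to 4. Fibrillar genes hold 38.7% to 62.7% in VC and 69.2% to 78.4% in miR-21-KD tumours, and transmembrane and other genes are too small to see.

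Ratios between chains of one tumour do not depend on the scaling of libraries, and 9 ratios of counts were tested by exact two-sided permutation, adjusted over the 9. The smallest p that 4 against 4 tumours allow is 0.0286. For 3 ratios the differences were within the spread between tumours. Col1a1 over Col1a2 was 1.29, 1.23, 1.33 and 1.27 in the VC tumours and 1.30, 1.47, 1.17 and 1.36 in the miR-21-KD tumours, a log2 difference of 0.05 (exact p = 0.543, adjusted 0.698). Col4a1 over Col4a2 differed by 0.02 on the log2 scale (exact p = 0.771, adjusted 0.771) and Col3a1 over Col1a1 by -0.06 (exact p = 0.743, adjusted 0.771). The values of the Col4a1 and Col4a2 pair lay between 1.35 and 1.55 in all 8 tumours.

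Other ratios did not overlap between the groups, among them ratios of chains that assemble together in type V and type VI collagen. Col5a1 over Col5a2 was 0.780, 1.69, 1.14 and 1.00 in the VC tumours and 0.554, 0.738, 0.492 and 0.583 in the miR-21-KD tumours, a log2 difference of -0.92 (exact p = 0.0286, adjusted 0.0643). Col5a1 over Col1a1 was 0.294, 0.633, 0.393 and 0.238 in the VC tumours and 0.156, 0.207, 0.202 and 0.181 in the miR-21-KD tumours, a difference of -0.97 with the same p. Every miR-21-KD tumour held less Col5a1 for its Col5a2 and for its Col1a1 than any VC tumour. Col6a1 over Col6a2 was 1.38, 1.82, 1.74 and 1.31 in the VC tumours and 0.786, 1.11, 0.978 and 0.802 in the miR-21-KD tumours, a difference of -0.77. Col6a3 over Col6a1 was 0.634, 0.209, 0.494 and 0.478 in the VC tumours and 1.51, 1.03, 0.828 and 1.10 in the miR-21-KD tumours, a difference of 1.37. All 4 of these ratios had the exact p of 0.0286 and an adjusted p of 0.0643, so none passed 0.05 after adjustment. Col12a1 over Col1a1 (-0.36, exact p = 0.143, adjusted 0.214) and Col18a1 over Col4a1 (-0.65, exact p = 0.0571, adjusted 0.103) overlapped between the groups.

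**Figure D4:**
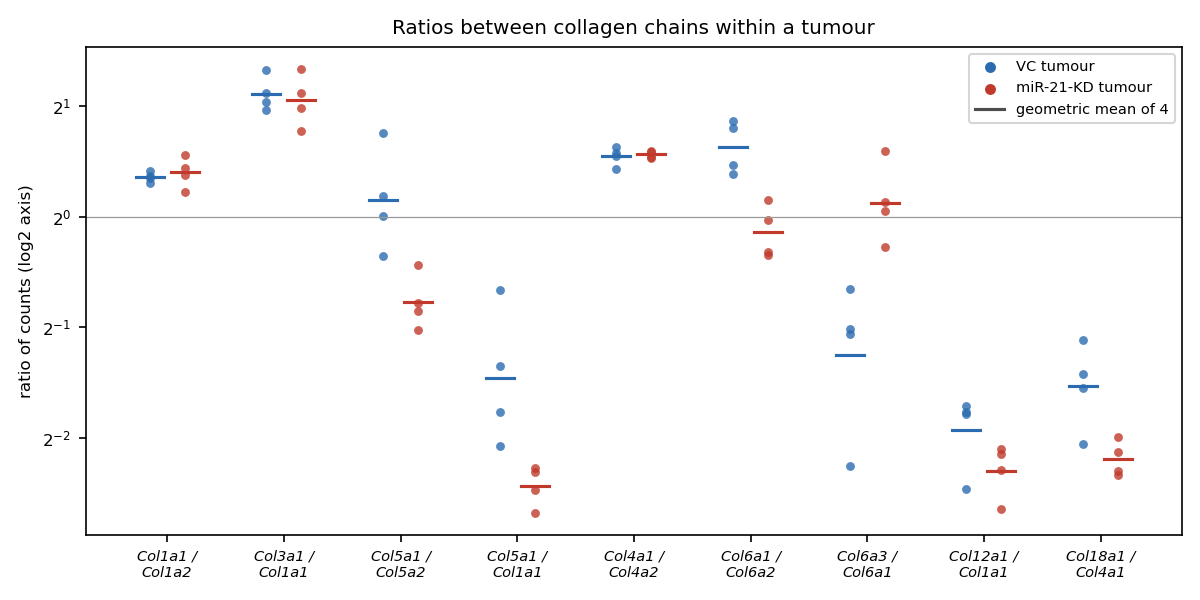
Ratio of the counts of a pair of collagen genes in each tumour, on a log2 axis, for 4 VC and 4 miR-21-KD tumours with the geometric mean of each group. Col1a1 over Col1a2 and Col4a1 over Col4a2 overlap, while Col6a3 over Col6a1 runs from 0.209 to 0.634 in VC and from 0.828 to 1.51 in miR-21-KD tumours.

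Genes that make, assemble, bind or degrade collagen were then examined, in 7 lists of 64 genes, of which 61 were tested. Of these, 25 rose, 7 fell and 29 did not pass, with a median log2 fold change of 0.38, where 19.6% of all genes tested rose and 19.5% fell. Cross-linking enzymes, proteins of the fibril surface and collagen-degrading proteases held 16 of the 25 rises, while the enzymes and chaperones of the endoplasmic reticulum were mixed. The count of rises was 13 without VC replicate 3 and 16 without VC replicate 2, where 9.9% and 11.6% of all genes tested rose.

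Inside the cell, collagen chains are hydroxylated, glycosylated, folded and exported. Of 14 hydroxylation and glycosylation genes 3 rose (P3h4, P3h3 and Plod1), a share near the 19.6% of all genes tested, and Crtap fell, and their summed level was 2645 ± 218 CPM in the VC tumours and 2793 ± 219.9 CPM in the miR-21-KD tumours (mean ± SD, n = 4 each). P4hb, the β subunit of prolyl 4-hydroxylase and the most abundant of them, had a log2 fold change of 0.15 (edgeR adjusted p = 0.391). Crtap, a subunit of the prolyl 3-hydroxylase complex, had 189, 218, 202 and 199 CPM in the VC tumours and 147, 143, 136 and 138 CPM in the miR-21-KD tumours, a change of -0.52 (standard error 0.08, edgeR adjusted p = 0.00569) with no overlap. P3h4, which takes part in lysine hydroxylation of collagen, had 7.58 ± 2.66 and 18.1 ± 4.75 CPM (mean ± SD, n = 4 each), a change of 1.25 (edgeR adjusted p = 0.0134). Of 10 folding and export genes 9 were tested, Fkbp10 and Creb3l1 rose, and Sec23a and Sec24d, coat proteins of export vesicles, fell, in both directions a share near that of all genes tested. Tmem38b rose as well with the replicate block (0.54, edgeR adjusted p = 0.0430). Fkbp10, a collagen chaperone, rose by 1.02 (edgeR adjusted p = 0.00699), and Sec23a fell by 0.45 (edgeR adjusted p = 0.00869). Serpinh1, the collagen-specific chaperone HSP47, had 327, 294, 307 and 323 CPM in the VC tumours and 309, 320.1, 300.4 and 294 CPM in the miR-21-KD tumours, with a log2 fold change of -0.03 (standard error 0.08, edgeR adjusted p = 0.757) that was slightly above 0 with upper-quartile scaling.

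Outside the cell, propeptides are trimmed and fibrils are cross-linked. Of 8 genes of propeptide removal 7 were tested, Adamts2 rose, Pcolce and Adamts14 fell and 4 did not pass. These counts are near those of all genes tested, of which 19.6% rose and 19.5% fell. Of the 4, Adamts3 rose with the replicate block (1.37, edgeR adjusted p = 0.0428). Adamts2, which removes the N-propeptide, had 73.5, 35.7, 55.1 and 57.1 CPM in the VC tumours and 224, 89.3, 109 and 135 CPM in the miR-21-KD tumours, a change of 1.33 (standard error 0.31, edgeR adjusted p = 0.0138). Pcolce, the enhancer of the C-proteinase, had 359.5, 465, 426 and 357 CPM in the VC tumours and 286, 233, 228 and 243 CPM in the miR-21-KD tumours, a change of -0.70 (standard error 0.12, edgeR adjusted p = 0.00681). The 2 genes moved in opposite directions, each with no overlap, and Bmp1, the C-proteinase itself, had a change of -0.02 (edgeR adjusted p = 0.913) whose sign depended on the scaling. Of 6 cross-linking genes, Lox, Loxl1, Loxl2 and Tgm2 rose and Loxl3 and Loxl4 did not pass. Loxl2, a lysyl oxidase-like enzyme, had 128, 50.3, 70.8 and 81.4 CPM in the VC tumours and 341, 173, 222 and 251 CPM in the miR-21-KD tumours, a change of 1.58 (standard error 0.30, edgeR adjusted p = 0.00827). Tgm2, a transglutaminase and the most abundant of the list, rose from 793 ± 127 to 1311 ± 121 CPM (mean ± SD, n = 4 each), a change of 0.72 (edgeR adjusted p = 0.00815).

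Of 9 fibril partners 7 rose (Fn1, Tnxb, Dcn, Lum, Fmod, Bgn and Postn), Thbs2 fell and Sparc did not pass. Fn1, fibronectin, on which collagen fibrils are laid down, had 3635, 2437, 1985 and 2695 CPM in the VC tumours and 10914, 5462, 11332 and 8355 CPM in the miR-21-KD tumours, a change of 1.75 (standard error 0.28, edgeR adjusted p = 0.00585). Tnxb, a tenascin that spaces collagen fibrils, rose by 2.06 (standard error 0.37, edgeR adjusted p = 0.00708). Neither overlapped between the groups. Of 10 receptors 9 were tested, Ddr1, Itga11 and Mrc2 rose, Itga10 fell and 5 did not pass, where 19.6% of all genes tested rose and 19.5% fell. Of the 5, Ddr2 fell with the replicate block (-0.57, edgeR adjusted p = 0.0142). Itga10, an integrin chain for collagen known from cartilage, had 6.78, 21.5, 9.93 and 11.0 CPM in the VC tumours and 1.70, 3.30, 2.52 and 1.80 CPM in the miR-21-KD tumours, a change of -2.40 (standard error 0.39, edgeR adjusted p = 0.00632). Ddr1, a collagen-activated tyrosine kinase, rose by 0.60 (edgeR adjusted p = 0.0134), and Itgb1, the shared β1 chain, had -0.08 (edgeR adjusted p = 0.599). Of 7 genes of collagen breakdown 5 rose (Mmp2, Mmp9, Mmp13, Ctsk and Fap) and Mmp8 and Mmp14 did not pass. Mmp13, a collagenase, had 417, 193, 634 and 581 CPM in the VC tumours and 2126, 1774, 1890.2 and 2122 CPM in the miR-21-KD tumours, a change of 2.12 (standard error 0.33, edgeR adjusted p = 0.00585). Mmp9, a gelatinase, had 659, 539, 593 and 702 CPM in the VC tumours and 2234, 1225, 2707 and 2293 CPM in the miR-21-KD tumours, a change of 1.76 (standard error 0.23, edgeR adjusted p = 0.00501). Both genes lay in every miR-21-KD tumour above every VC tumour.

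**Figure D5:**
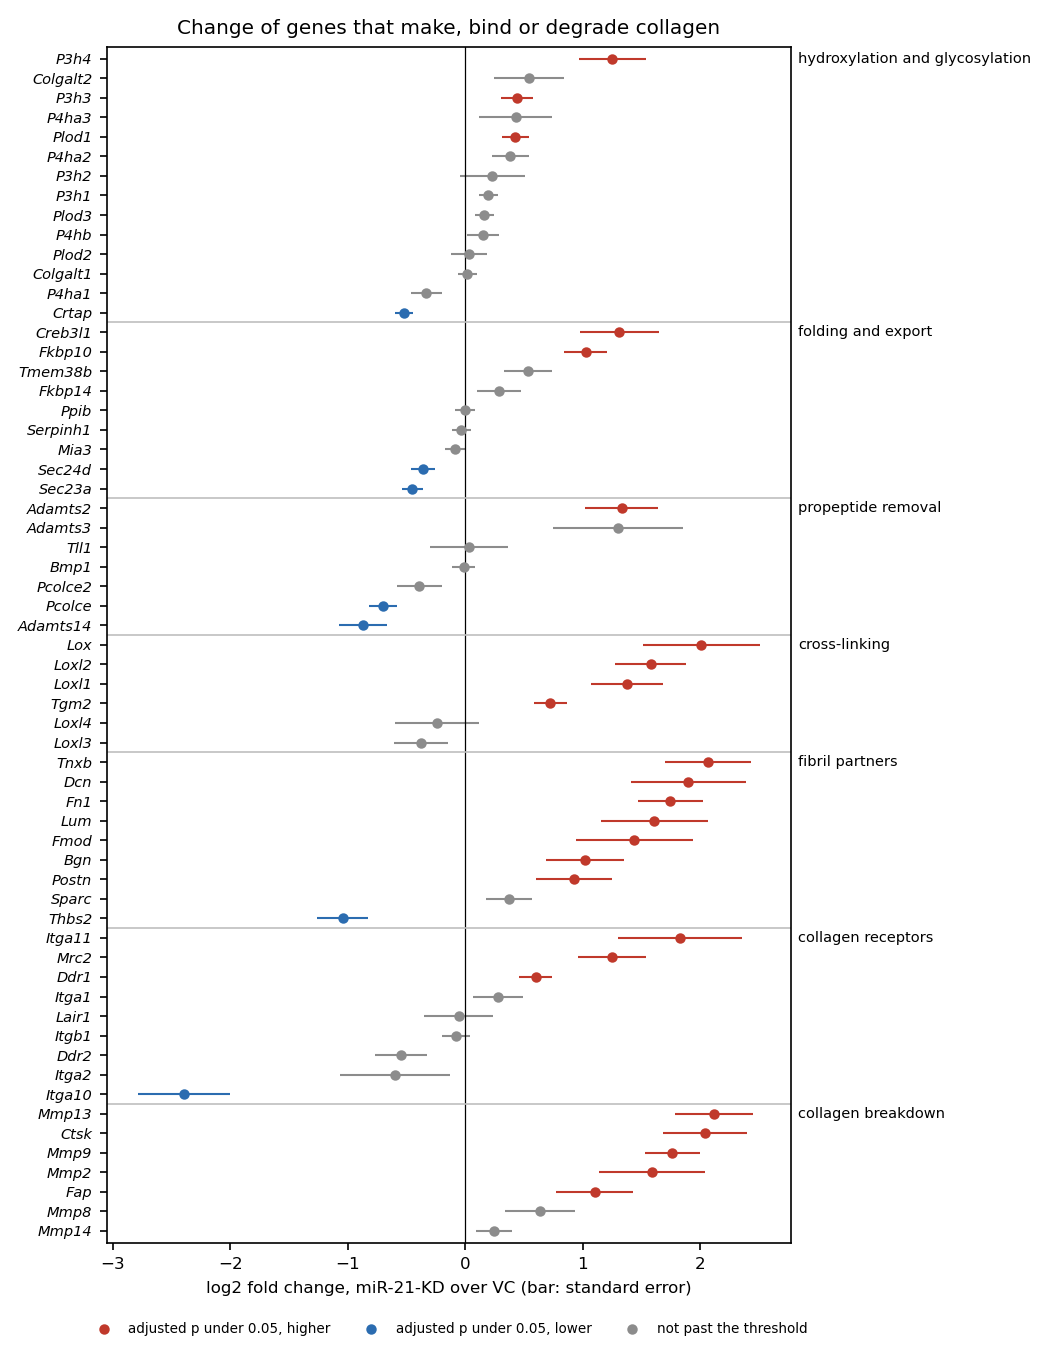
Log2 fold change (miR-21-KD over VC) with its standard error for the 61 tested genes that make, bind or degrade collagen, in 7 lists and coloured by the edgeR result. Genes of cross-linking, fibril partners and breakdown lie mostly to the right of 0, and Itga10 at -2.40 lies farthest to the left.

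Markers of the cell types that a tumour sample can hold are given by list, and their counts stand beside the 19.6% of all genes tested that rose and the 19.5% that fell. Of 10 fibroblast markers 7 rose, none fell and 3 did not pass, and their summed level was 599.8 to 939 CPM in VC and 916 to 2075 CPM in miR-21-KD tumours. Thy1, the most abundant of them on average, rose from 190 ± 43.3 to 323 ± 58.2 CPM, while Pdgfra had 228 ± 28.8 and 178 ± 54.4 CPM (mean ± SD, n = 4 each) and did not pass. The sums of the groups overlapped, and with the replicate block Pdgfrb rose as well (0.60, edgeR adjusted p = 0.0345). Lum and Fap stand in this list and in those above. Of 8 pericyte and smooth muscle markers 5 rose, with sums of 187 to 289 CPM in VC and 326 to 480.2 CPM in miR-21-KD tumours and Acta2 as the most abundant, and Notch3 rose as well with the replicate block (0.38, edgeR adjusted p = 0.0234). Of 8 endothelial markers 1 rose, Tek, a share not above that of all genes, and 7 did not pass, with sums of 431 to 743 CPM and 629 to 883 CPM and Pecam1 as the most abundant. With the replicate block Tie1 (0.25, edgeR adjusted p = 0.0493) and Emcn (-0.35, edgeR adjusted p = 0.0256) passed as well. Of 7 epithelial markers 5 rose (Epcam, Krt19, Cdh1, Krt14 and Krt5) and Krt18, the most abundant, fell, as did Krt8 with the replicate block (-1.0, edgeR adjusted p = 0.0413). Their sums were 1289.7 to 2222 CPM in VC and 1034 to 1949 CPM in miR-21-KD tumours, and Krt14 and Krt5, which mark basal epithelium, went from 7.10 ± 6.05 to 60.4 ± 29.8 CPM and from 11.6 ± 10.5 to 87.3 ± 60 CPM (mean ± SD, n = 4 each) beside the rise of Col17a1.

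Tissue around the tumour was also looked for. All 6 adipocyte markers rose, with sums of 85.6 to 323 CPM in VC and 433 to 1142 CPM in miR-21-KD tumours and Fabp4 as the most abundant. Of 7 keratinocyte markers of skin 2 were tested, Krt10 fell, Flg2 was at 0 in all tumours and the sums were 4.73 to 35 CPM in VC and 3.30 to 16.3 CPM in miR-21-KD tumours, with Trp63 as the most abundant, which rose with the replicate block (1.78, edgeR adjusted p = 0.0314). Of 6 skeletal muscle markers only Mylpf was tested, none was called and the sums reached at most 7.11 CPM. Of 6 Schwann cell markers, which belong to cells of nerve, 5 were tested and Sox10 and Ncam1 rose, with sums of 43.5 to 53.2 CPM and 47.9 to 113 CPM, mostly from Mbp. Of 6 chondrocyte markers 2 were tested and Comp rose, with sums of 57.1 to 63.3 CPM and 23.4 to 54.4 CPM that came almost wholly from Sox9, which fell with the replicate block (-0.76, edgeR adjusted p = 0.0265). Of 6 leukocyte markers 5 rose, with sums of 928 to 1583 CPM and 1682 to 3001 CPM and Csf1r as the most abundant. The part of these cell types in the collagen differences was not tested.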

How the data were processed

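RNA sequencing of 8 whole tumours, 4 VC and 4 miR-21-KD by their labels, was analysed. The authors deposited raw read counts per Entrez gene without normalization, and all columns were used. The submitters' processing notes name Subread, featureCounts, edgeR, limma and mm10. Versions, annotation and strand setting are not given in the sources used here, so reads of overlapping genes, such as Col4a1 and Col4a2 at their starts, may not be separable. Symbols, from the GRCm38.p6 annotation, matched 25275 of 27179 identifiers.

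Counts were tested in R 4.3.3 with edgeR 4.0.16 (filterByExpr with minimum count 10 and total 15, TMM, robust quasi-likelihood test, Benjamini-Hochberg adjustment, threshold 0.05). This left 14382 genes with 99.852% of counts. Fold changes are miR-21-KD over VC. A standard error is the estimate divided by the root of the F statistic. A prior count of 2 entered log2 CPM. Levels per kilobase used the longest protein-coding transcript of the GENCODE annotation. Chain ratios with at least 10 counts of both genes in every tumour were compared by exact permutation, and Col4a5 over Col4a6 was left out for low counts. Alternatives were DESeq2 1.42.0, limma-voom (limma 3.58.1) with quality weights, library-size and upper-quartile scaling, other filters, a replicate block and each tumour left out. Tumours of a group differed by more than sampling noise (chi-square per degree of freedom between 13.3 and 75.4).

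The collagen genes, classes and lists were chosen with earlier results of these data known. Values in every tumour are given for collagen genes past the threshold and for the pair with the highest mean CPM in each class, and also for other genes where the text says so. From each partner list the text names the pair of smallest adjusted p past the threshold and the most abundant gene, and from each marker list the most abundant gene. Other genes named were chosen after their values were seen. The result of 1 marker gene is not reported here.

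Replicate numbers come from the labels. After removal of group means, same-numbered VC and miR-21-KD tumours correlated at 0.272, 0.421, 0.175 and 0.376 (mean 0.311, other combinations -0.105). Deviations from a group mean cancel out within the group, so the second mean largely follows from the first and is no separate contrast. The same-numbered values were all positive, so the numbers may pair the tumours. The fit reported has no replicate term and so ignores such a pairing. Values with the replicate block are given where it changed a call.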

Additional observations from a re-analysis of the deposited data

Results flagged for a closer look

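In 5 of 84 groups of 4 tumours examined, a single tumour lay so far from the others that its gap exceeded Dixon's critical share of the group's range, and chance alone gives about 1 in 20 groups. Col9a2 had 3.02 CPM in VC replicate 1, against 0.479 to 0.817 CPM in the other VC tumours. Col28a1 had 8.04 CPM in VC replicate 1, against 2.07 to 2.99 CPM. Col8a1 had 45.4 CPM in VC replicate 4, against 20.1 to 21.8 CPM. Col4a5 had 5.27 CPM in miR-21-KD replicate 2, against 19.0 to 20.05 CPM in the other miR-21-KD tumours. The summed FACIT collagens had 1509 CPM in miR-21-KD replicate 1, against 840.5 to 898.7 CPM, with Col12a1 at 1081 CPM in that tumour. Their causes were not tested.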

How the results depend on the processing

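The count of 17 collagen genes higher in miR-21-KD tumours was between 17 and 23 under the other scalings, filters and tools and with the replicate block (21). It was between 10 and 21 when 1 tumour was left out, lowest without VC replicate 3. The count of lower collagen genes, 1, became 2 without a filter on low counts and was between 1 and 3 with a tumour left out. Col22a1 accounts for the gain without a filter, and it also passed the filter and was called lower without VC replicate 4 or any one miR-21-KD tumour, with log2 fold changes from -3.91 to -2.74. The partner genes gave 25 higher, between 13 and 27 with a tumour left out (13 without VC replicate 3, 16 without VC replicate 2), and 7 lower, between 6 and 9 with a tumour left out and 11 with limma-voom, where 28.8% of all genes tested fell and 28.2% rose. The replicate block brought Col9a2, Col15a1, Col8a1 and Col8a2 past the threshold and changed no other collagen call. In the lists it ended no call, and the calls it added are given with their genes, except 1 that is not reported. Over all genes tested, the share that rose was between 9.9% and 22.5% with a tumour left out.

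Single values were recomputed for the 36 tested collagen genes, the 9 ratios and 18 partner genes, and for the other partner genes and the markers with the replicate block alone. Among these, the signs that changed were of values that passed no threshold in the fit reported. Col4a6 was at 0.48 with limma-voom and between -0.30 and 0.30 with a tumour left out. With a tumour left out, Col11a2 was between -0.011 and 0.31, Col6a4 between -0.079 and 1.09 (VC replicates 2 and 4 set these ends for both), and Bmp1 between -0.084 and 0.031. Serpinh1 was at 0.0094 with upper-quartile scaling and at 0.018 under the filter of 10 counts in each tumour, and Bmp1 at 0.029 and 0.037 in these settings and at 0.0039 with DESeq2. With a tumour left out, the log2 difference was between -0.0075 and 0.10 for Col1a1 over Col1a2, between -0.15 and 0.033 for Col3a1 over Col1a1, and between -0.022 and 0.044 for Col4a1 over Col4a2. The causes were not tested.

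Ratio tests with 3 against 4 tumours cannot go below 0.0571, nor tests that pair the replicate numbers below 0.125, so these settings say nothing of their stability. Genes with few counts, such as Col11a1 in VC tumours, are limited by depth.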
